A study of Mus musculus with 12 samples.

Results

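A set of 2895 distal regions carried H3K27ac in C2C12 myotubes and had no listed enhancer mark in the myoblasts they were made from. C2C12 is a mouse myoblast line that fuses into multinucleated, contracting myotubes when serum is withdrawn. The regions were selected on measured values. Each was an interval of the deposited myotube H3K27ac list, on chromosomes 1 to 19, more than 2.5 kb from every annotated start site (TSS) of a protein-coding transcript. It overlapped no interval of the myoblast lists named H3K27ac, H3K4me1 or H3K4me2, held at least 20 myotube H3K27ac reads, and had at least 3 times the H3K27ac of myoblasts after scaling to total reads with 1 read added. Of 46294 myotube H3K27ac intervals on these chromosomes, 33007 were distal in this sense, 20714 of those overlapped no myoblast H3K27ac interval, and 11617 overlapped none of the 3 myoblast lists. Of these, 8346 held under 20 reads and 376 of the other 3271 fell short of 3-fold. The H3K27ac difference and the absence of listed myoblast intervals are therefore properties of the selection and not results.

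The data were 12 chromatin immunoprecipitation sequencing (ChIP-seq) libraries, 1 for each of 6 histone marks in untreated myoblasts and 1 in untreated myotubes. The myoblasts were close to confluent in medium with 10% serum, and the myotubes had been without serum for about 5 days and had been freed of unfused cells by a light trypsin treatment. Both came from the same line, of C3H origin, at passages 15 to 18. With 1 library per mark and state there was no replicate check, so every difference is one between 2 libraries, and the intervals given (95%) cover counting error only. Libraries held 1858771 to 7033100 reads, with 1858771 for myoblast and 4725910 for myotube H3K27ac. The labels were checked at promoters. H3K4me3 was higher in myotubes at 10 of 10 genes of differentiated muscle, by 4.49 to 36.3 times, and lower at 6 of 6 genes of cycling myoblasts, at 0.187 to 0.726 of the myoblast value. At 5 promoters of liver and blood genes it was at most 1.38 times the genome mean in both states, and at 6 of neuronal genes at most 1.94 times, apart from Stmn2 (8.30 and 8.53 times).

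Enhancers are DNA elements away from promoters that bind transcription factors and raise transcription of genes in their neighbourhood. Their nucleosomes commonly carry H3K4me1 and H3K4me2, and H3K27ac is added where they are active, while H3K4me3 marks promoters, H3K36me3 the transcribed bodies of genes and H3K27me3 chromatin silenced by Polycomb. In muscle cells, factors of the MyoD family bind E-boxes with the core CAGCTG, and MEF2 proteins bind an AT-rich element. AP-1, a dimer of Fos and Jun proteins active in growing cells, binds TGA(C/G)TCA. The looser pattern TGANTCA, searched here and called the AP-1 element, also accepts A or T in the middle.

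Stretches of 7 of these regions are printed because they were among the strongest or lay beside the muscle genes to which the results below refer. The sequences come from mouse build NCBIM37, the same assembly as the mm9 of the files. Each is a 300-base stretch placed on the largest number of motif matches that a search of the region's central 1 kb gave, so the presence of a match follows from the choice. Capitals mark CAGCTG, the pattern TGANTCA on either strand and, in the Rbm24 region, the MEF2 element.
Neb region (chr2:52227932-52228231, plus strand): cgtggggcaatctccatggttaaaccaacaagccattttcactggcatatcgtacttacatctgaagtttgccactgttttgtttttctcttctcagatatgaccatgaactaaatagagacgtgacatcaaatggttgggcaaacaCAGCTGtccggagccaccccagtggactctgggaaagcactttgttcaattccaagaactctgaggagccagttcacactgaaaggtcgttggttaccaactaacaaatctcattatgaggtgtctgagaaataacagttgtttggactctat
Heatr1 region (chr13:12461491-12461790, plus strand): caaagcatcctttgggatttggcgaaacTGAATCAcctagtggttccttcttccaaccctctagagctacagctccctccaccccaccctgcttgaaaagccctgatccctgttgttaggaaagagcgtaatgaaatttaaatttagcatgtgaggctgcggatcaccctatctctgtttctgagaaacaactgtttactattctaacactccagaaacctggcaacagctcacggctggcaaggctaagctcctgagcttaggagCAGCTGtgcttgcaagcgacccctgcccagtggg
Chi3l1 region (chr1:136057011-136057310, plus strand): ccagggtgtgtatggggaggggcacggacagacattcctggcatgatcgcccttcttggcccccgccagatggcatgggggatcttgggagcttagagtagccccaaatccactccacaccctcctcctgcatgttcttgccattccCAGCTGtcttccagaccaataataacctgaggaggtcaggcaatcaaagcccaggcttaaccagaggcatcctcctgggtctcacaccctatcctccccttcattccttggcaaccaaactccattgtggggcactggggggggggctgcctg
Mb region (chr15:76844427-76844726, plus strand): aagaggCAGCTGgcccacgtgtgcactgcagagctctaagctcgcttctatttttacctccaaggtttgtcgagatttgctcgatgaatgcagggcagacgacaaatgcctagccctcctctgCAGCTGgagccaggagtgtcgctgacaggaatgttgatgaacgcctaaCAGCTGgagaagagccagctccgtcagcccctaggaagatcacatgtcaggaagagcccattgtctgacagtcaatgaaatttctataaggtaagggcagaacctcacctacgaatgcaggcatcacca
Rbm24 region (chr13:46522783-46523082, plus strand): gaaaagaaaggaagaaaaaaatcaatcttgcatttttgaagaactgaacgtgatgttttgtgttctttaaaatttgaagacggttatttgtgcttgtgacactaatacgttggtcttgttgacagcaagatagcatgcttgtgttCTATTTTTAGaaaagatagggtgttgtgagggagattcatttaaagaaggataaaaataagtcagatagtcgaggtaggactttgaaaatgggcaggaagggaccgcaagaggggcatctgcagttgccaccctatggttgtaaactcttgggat
Mef2c region (chr13:83346587-83346886, plus strand): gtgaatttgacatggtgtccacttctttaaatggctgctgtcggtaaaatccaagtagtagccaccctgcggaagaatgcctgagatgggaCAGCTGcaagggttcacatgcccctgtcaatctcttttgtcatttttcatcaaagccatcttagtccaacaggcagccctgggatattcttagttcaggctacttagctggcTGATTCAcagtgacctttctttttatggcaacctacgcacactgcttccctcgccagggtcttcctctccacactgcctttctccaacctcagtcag
Mir1a-1 region (chr2:180124654-180124953, plus strand): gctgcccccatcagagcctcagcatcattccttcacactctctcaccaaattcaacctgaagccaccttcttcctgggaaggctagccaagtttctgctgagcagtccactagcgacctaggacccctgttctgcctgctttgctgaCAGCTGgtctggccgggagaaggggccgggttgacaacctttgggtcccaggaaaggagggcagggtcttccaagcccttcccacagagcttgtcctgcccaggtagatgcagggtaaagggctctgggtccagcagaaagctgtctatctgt
The Mb stretch, near the myoglobin gene, held 3 CAGCTG cores. The Heatr1 and Mef2c stretches each held 1 CAGCTG and 1 TGANTCA, and the other 4 held 1 match each. The TGANTCA matches were TGAATCA at Heatr1 and TGATTCA at Mef2c, with A or T in the middle.

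The first question was which marks these regions carried in each state. The signal is given as fold over the genome, the reads in 1 kb centred on the interval divided by the mean number per kb of that library. In myotubes the regions had the marks of active enhancers, H3K4me1 at a median of 9.38-fold and H3K4me2 at 8.07-fold, beside the H3K27ac of 18.9-fold that selected them. H3K4me3 was lower, at 3.88-fold, and H3K27me3 (1.02-fold) and H3K36me3 (1.19-fold) lay near the genome mean. In myoblasts the medians were 2.76-fold for H3K4me1, 1.19-fold for H3K4me2, 1.38-fold for H3K27ac, 0.922-fold for H3K4me3, 1.09-fold for H3K27me3 and 1.09-fold for H3K36me3. The number of cells with a mark and the amount of mark per cell cannot be told apart in such bulk material.

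Unmarked here meant without a listed interval, not without reads. In myoblasts, H3K4me1 reads exceeded the genome mean beyond counting error (lower Poisson bound above the mean) at 1488 of the 2895 regions (51.4%), H3K4me2 reads at 360 (12.4%) and H3K27ac reads at 141 (4.87%). Over all distal intervals, which include those with listed myoblast marks, the shares were higher, at 78.6%, 54.3% and 49.45%. The averaged myoblast H3K4me1 signal also had a shape. It was 3.37-fold within 100 bp of the interval midpoint, 1.94-fold at 1 to 1.5 kb and 2.44-fold at 4 to 5 kb. For myoblast H3K4me2 the corresponding values were 1.91-, 0.999- and 2.00-fold. The other myoblast marks had a smaller excess at the midpoint, with 1.39-fold against 0.964-fold at 1 to 1.5 kb for H3K4me3, 1.62 against 1.28 for H3K27ac, 2.30 against 1.99 for H3K36me3 and 1.24 against 1.12 for H3K27me3. At 4 to 5 kb the values were 1.53-fold for H3K4me3, 2.36-fold for H3K27ac, 1.99-fold for H3K36me3 and 1.13-fold for H3K27me3. All 6 marks thus had a small midpoint excess over 1 to 1.5 kb in myoblasts. H3K27ac, H3K4me3 and H3K4me2 were, however, higher at 4 to 5 kb than at the midpoint. For H3K4me1 and H3K4me2 the midpoint excess coincided with a much taller myotube peak (10.5-fold for H3K4me1 and 10.3-fold for H3K4me2). Regions with myoblast H3K4me1 above the genome mean had somewhat higher myotube medians than those without. H3K4me1 was 10.2- and 8.16-fold and H3K27ac 20.03- and 17.9-fold. A count of 0 in 1 kb allows up to 3 reads, which in the shallow myoblast H3K27ac library is 4.13-fold, so H3K27ac below that level in myoblasts was not detectable at a single region.

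**Figure D1:**
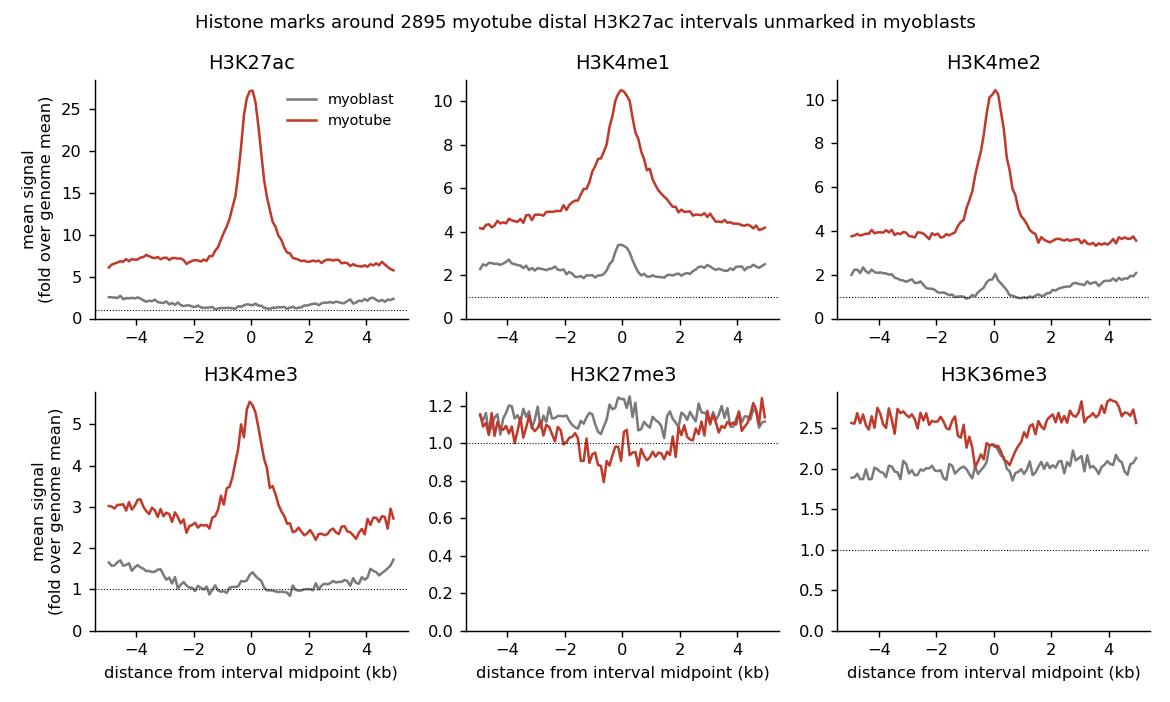
Mean signal of 6 histone marks (fold over the genome mean of the library, vertical axes from 0) against the distance from the interval midpoint in kb, in 100-bp bins over the 2895 regions, for 1 myoblast (grey) and 1 myotube library (red) per mark. H3K27ac, H3K4me1, H3K4me2 and H3K4me3 peak at the midpoint in myotubes, and myoblast H3K4me1 and H3K4me2 show small peaks of 3.37- and 1.91-fold at the same place. Myoblast H3K4me2 rises again to 2.00-fold at 4 to 5 kb.

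The second question was how marks that the selection had not used changed. The ratio of myotube to myoblast H3K4me3 had a median of 2.52 (1.54 with 5 added reads), and 61.1% of the regions were at least 2-fold higher in myotubes, against 35.8% of all 33007 distal myotube H3K27ac intervals. H3K4me1 and H3K4me2 were used only through the myoblast lists, which lowers their myoblast values and so raises these ratios. The H3K4me1 ratio had a median of 3.23 (3.10 to 3.36) with 78.6% of regions at 2-fold or more against 28.3% of all distal intervals, and the H3K4me2 ratio one of 4.81 (4.51 to 4.96) with 87.5% against 41.5%. For comparison, 17.6% of all distal intervals met the read and fold limits for H3K27ac. H3K36me3 was at least 2-fold higher at 23.7% of the regions against 16.5%, and H3K27me3 at least 2-fold lower at 21.0% against 16.3%, both nearer to the background than the other marks. H3K4me3 reads were few, and the counting interval of its ratio lay above 1 at 545 regions (18.8%), compared with 8.85% of all distal intervals. When libraries were scaled by reads in windows without listed intervals instead of total reads, log2 ratios shifted by -0.64 for H3K4me2 and by -0.31 for H3K4me1 at all regions alike, and the medians became 3.10 and 2.61 against 1.02 and 0.914 for all distal intervals. With that scaling 71.3% and 66.7% of the regions were still at least 2-fold higher, while over all distal intervals the higher and lower shares went from 41.5% and 10.8% to 27% and 23.5% for H3K4me2, and from 28.3% and 12.4% to 22.2% and 21.0% for H3K4me1.

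The regions were set beside 2 other classes of distal myotube H3K27ac intervals. Premarked intervals (2159) met the same H3K27ac limits but overlapped a myoblast H3K4me1 or H3K4me2 interval, and kept intervals (12293) overlapped a myoblast H3K27ac interval. Kept intervals had no read or fold limit. Their myotube H3K27ac reads had a median of 32 and a lowest value of 0, against medians of 37 in the regions and 49 in premarked intervals. Myotube H3K4me1 had medians of 9.38-, 11.01- and 10.2-fold for unmarked, premarked and kept intervals, and H3K4me2 of 8.07-, 10.8- and 10.2-fold. Both marks were thus lowest in the unmarked class. The classes differed more in the myoblast values, from which they had been defined. Median H3K4me3 ratios, which no class was defined by, were 2.52, 2.10 and 1.26. Myotube H3K4me3 itself was 3.88-fold in the unmarked class and 4.65-fold in the other two. No test of these differences was possible with 1 library each.

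**Figure D2:**
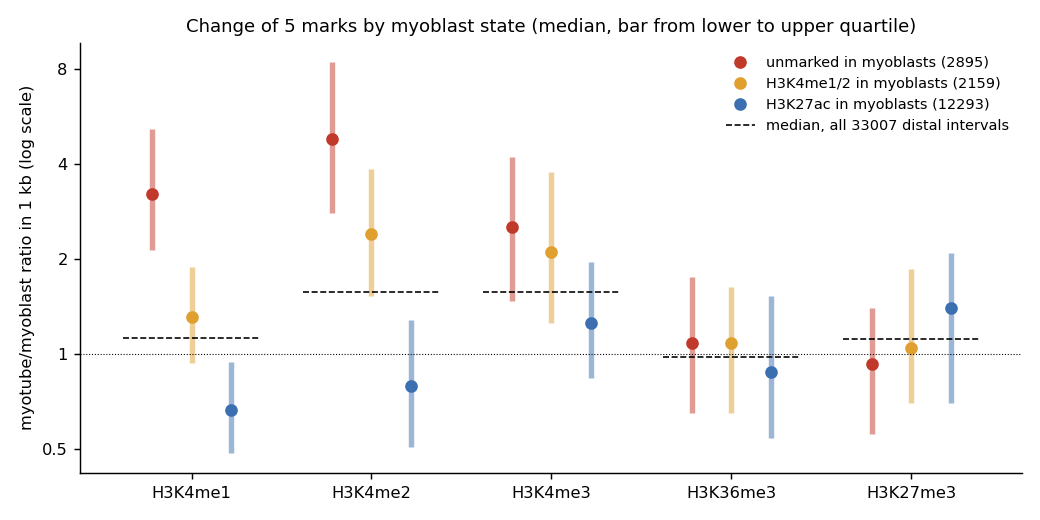
Myotube to myoblast ratio of reads in 1 kb (log axis) for 5 marks at distal intervals unmarked in myoblasts (red), with myoblast H3K4me1 or H3K4me2 (yellow) or with myoblast H3K27ac (blue). Points are medians, bars run from the lower to the upper quartile over intervals, and the dashed lines are medians of all 33007 distal intervals. The unmarked class has the highest medians for H3K4me1 (3.23), H3K4me2 (4.81) and H3K4me3 (2.52), and the lowest for H3K27me3 (0.933).

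In the deposited myotube lists, 63.9% of the regions overlapped an H3K4me1 interval, 54.2% an H3K4me2 interval and 15.7% an H3K4me3 interval. The shares of all distal intervals, which had no read limit, were 55.2%, 48.5% and 17.2%, so the H3K4me3 overlap was not above that background. Premarked intervals, with the same H3K27ac limits, were at 81.7%, 74.4% and 25.2%, and kept intervals at 67.4%, 65.2% and 27.9%. The regions thus had the lowest share of the 3 classes for each of these marks. Of the 2895, 862 had H3K4me1 and H3K4me2 without H3K4me3, 293 had all 3, and 610 had none. These combinations were not counted over all distal intervals, so the counts do not show anything particular to the regions. Reads were present more widely than intervals. At 98.8% of the regions myotube H3K4me1 exceeded the genome mean beyond counting error and at 94.3% H3K4me2 did, against 95.6% and 87.6% of all distal intervals. The shares were 99.8% and 98.2% for premarked and 97.1% and 93.6% for kept intervals. The myotube H3K4me1 list held narrow intervals, 143 bp on average against 1239 bp in the myoblast list.

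The strongest regions lay beside muscle and other genes. Genes are named here by the nearest protein-coding TSS, which need not be the gene an enhancer acts on. The highest myotube H3K27ac in 1 kb, 145-fold, was found between genes on chromosome 13 (12460430 to 12463175), 24490 bp from a TSS of Heatr1, a gene of ribosome production. That interval held 444 myotube and 1 myoblast H3K27ac reads, a ratio of 175 (31.2 to 6913). It belonged to a group of 5 regions over 23191 bp whose nearest genes were Heatr1 and Actn2, the alpha-actinin of the sarcomere's Z-disc. In the same 1 kb, H3K4me1 went from 10 to 27 reads, H3K4me2 from 12 to 49, H3K4me3 from 4 to 11 and H3K27me3 from 11 to 0.

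The second, at 135-fold, lay 19175 bp from Chi3l1, which encodes a secreted chitinase-like protein, on chromosome 1 (136055738 to 136059578). It had 553 myotube and 2 myoblast H3K27ac reads, and H3K4me2 went from 2 to 60. Others of the first 10 were near Slc6a18, an amino acid transporter gene (2 adjacent regions, 127- and 109-fold), Zhx2, a transcriptional regulator (109-fold, in an exon), Rassf3 (96.9-fold), Neb (95.3-fold), Emp2 (89.9-fold) and Chchd5 (89.3-fold). In these and the Heatr1 and Chi3l1 regions the myoblast H3K27ac reads ranged from 0 to 13 and the myotube reads from 229 to 553. H3K4me2 was higher in myotubes in each of them, with 1 to 12 reads in myoblasts and 20 to 61 in myotubes.

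The lower bound of the H3K27ac ratio was highest beside Neb, the gene of nebulin, which lines the thin filaments of the sarcomere. The region, 32056 bp from its TSS, held 353 myotube and 0 myoblast reads, a ratio of 46.3 against the 3 reads that a count of 0 allows. The lower bound of its counting interval was 37.4, and with 0 myoblast reads the interval had no upper bound. There H3K4me1 went from 10 to 18 reads, H3K4me2 from 5 to 61 and H3K4me3 from 0 to 39. Next came regions near Egln3, an oxygen-sensing prolyl hydroxylase (301 and 0 reads, lower bound 31.9), and Pou2af1 (295 and 0 reads, lower bound 31.3). In each of these 3 the myoblast library held no H3K27ac read at all.

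Among the gene lists examined, genes of the contractile apparatus were nearest to the largest number of regions. Of 61 sarcomere genes found, 26 (42.6%) were nearest to at least 1 region, compared with 8.07% of the 21416 protein-coding genes, and the 68 regions were 20.9% of all distal H3K27ac intervals at these genes, compared with 8.77% over all genes. Actn2 had 10 regions, Myl1, a myosin light chain, had 7, and Ttn (titin), Actc1 (cardiac actin) and Mybph had 4 each. The strongest at Actn2 lay in the gene (304 myotube and 3 myoblast H3K27ac reads), where H3K4me1 went from 0 to 16 and H3K4me2 from 0 to 13. The strongest at Synpo2, which encodes an actin-binding protein of the Z-disc, was also intragenic (274 and 3 reads, a ratio of 35.9, 12.2 to 175).

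Promoters of these genes changed in the same libraries. H3K4me3 within 1 kb of the TSS was at least 2-fold higher in myotubes at 49 of the 61 sarcomere promoters and at least 2-fold lower at 0, against 7.44% of all promoters higher and 14.2% lower. At Neb it went from 1 to 161 reads, at Actn2 from 2 to 31, at Acta1, the skeletal actin gene, from 4 to 215 and at Lmod2, a nucleator of actin filaments, from 1 to 159. H3K36me3 over the gene body was at least 2-fold higher at 42 and lower at 0, against 9.56% of all genes higher and 6.74% lower. Over the body of Actn2 its level per length went from 0.505- to 5.21-fold of the genome mean.

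Genes of calcium release and excitation were nearest to 23 regions, at 9 of 27 genes and 20.4% of their distal intervals. Jph1, which encodes a junctophilin joining the plasma membrane to the sarcoplasmic reticulum, had 8 of them. Its strongest lay 134635 bp from the TSS with 165 myotube and 3 myoblast H3K27ac reads, while its promoter had 70 H3K4me3 reads in myoblasts and 87 in myotubes. Scn4a, the sodium channel of skeletal muscle, had a region 4051 bp from its TSS in which H3K27ac went from 6 to 240 reads and H3K4me1 from 7 to 53. A region assigned to Atp2a2, a calcium pump of the reticulum, held 160 and 2 reads. Promoter H3K4me3 was at least 2-fold higher at 15 of the 27 genes and lower at 2.

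At the neuromuscular junction list, 4 of 12 genes had 6 regions (16.2% of their distal intervals). Colq, which anchors acetylcholinesterase, had one in an intron with 83 myotube and 3 myoblast H3K27ac reads, and Musk, the receptor kinase that organises the synapse, had 3, the strongest with 35 and 0. The region at Chrng, the receptor subunit of immature muscle, was close to the fold limit (32 and 3 reads, a ratio of 4.20, 1.31 to 21.4). H3K4me3 at the promoters was at least 2-fold higher at 8 of 12 genes and lower at 1.

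Fusion and membrane genes had 16 regions at 8 of 17 genes, which was 9.76% of the distal intervals at these genes and near the 8.77% over all genes. Among them were Dysf (dysferlin, membrane repair) with 4 and Cdh2 (N-cadherin) with 3. The strongest was in an intron of Myof, the dysferlin relative myoferlin, with 198 and 7 reads. Among genes of the dystrophin complex and its matrix partners, 8 of 19 had 11 regions, or 9.09% of their distal intervals. They were led by 2 in introns of Lama2, a laminin chain, with 219 and 7 and with 72 and 2 reads. Promoter H3K4me3 was at least 2-fold higher at 4 of 17 and 3 of 19 genes of these lists and lower at 2 and 4, so here more genes had a region than had a higher promoter signal.

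Metabolic genes of muscle were represented by 4 of 25, with 9 regions (12.2% of their distal intervals). The region 6370 bp from Mb, the gene of the oxygen store myoglobin, held 304 myotube and 8 myoblast H3K27ac reads, and it also had 32 H3K4me1 reads in myoblasts, against 53 in myotubes, without lying in a listed myoblast interval. Hk2, a hexokinase gene, had 2 regions with 41 and 29 myotube reads and none in myoblasts. Promoter H3K4me3 was at least 2-fold higher at 10 of the 25 and lower at 1.

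Among 35 regulators of myogenesis, 12 had 40 regions, or 11.9% of their distal intervals. Mef2c, a MEF2 family gene, had 10, of which the strongest lay 295190 bp from its TSS (137 and 0 reads, with H3K4me1 from 1 to 20 and H3K4me2 from 1 to 24). Its promoter H3K4me3 went from 1 to 88 reads. Rbm24, whose product regulates muscle splicing, had 4, one in an intron with 192 and 2 reads and one 3318 bp from the TSS with 130 and 2. Myod1 had 3 and Myog 2. A further Myog interval with 79 myotube and 3 myoblast reads was left out by the distance limit, at 2493 bp from the TSS. Promoter H3K4me3 was at least 2-fold higher at 7 of the 35 and lower at 2.

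Lists of other programmes served as contrasts. No region had a neuronal gene (0 of 12) or a liver or blood gene (0 of 12) nearest, although these genes also had only 2 and 8 distal H3K27ac intervals in all. Of 18 proliferation genes, 2 were nearest to regions, Myc with 7 and Ccnd1 with 1, together 11.6% of their distal intervals, a share like that of the myogenic regulators. In this list 13 of the 18 promoters had at least 2-fold less H3K4me3 in myotubes, with 0 higher. The Myc regions lay far away, the strongest 495666 bp from its TSS (187 and 1 reads). One fibroblast gene, Postn, had 2 regions, and 4 of 14 adipocyte and bone genes, Pparg, Cebpb, Lpl and Runx2, had 6, with 68 myotube H3K27ac reads or fewer in each. These regions were 6.06% and 8.57% of the distal intervals of the fibroblast and the adipocyte and bone lists, against 8.77% over all genes.

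**Figure D3:**
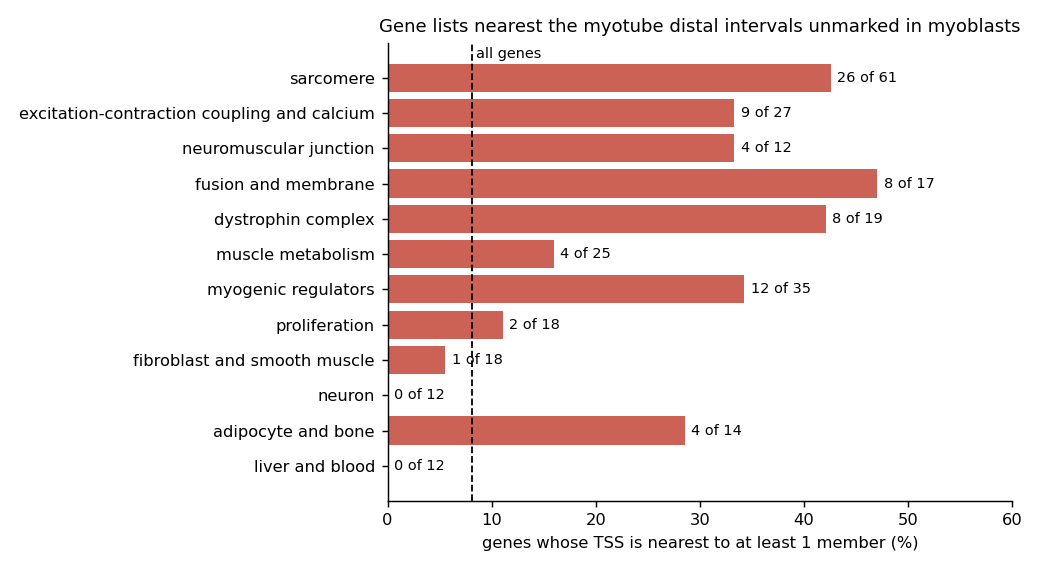
Share of the genes of each list (horizontal axis, percent) whose TSS was nearest to at least 1 of the 2895 regions, with the counts beside the bars. The dashed line is the share of all protein-coding genes (8.07%). Sarcomere (26 of 61), fusion (8 of 17) and dystrophin complex genes (8 of 19) have the longest bars, but as a share of distal intervals the fusion (9.76%) and dystrophin lists (9.09%) are near all genes (8.77%), and neuronal, liver and blood genes have none.

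Genes nearest to several regions more often had higher H3K4me3 and H3K36me3 in myotubes than genes nearest to 1. In all, 1729 genes were nearest to at least 1 region. Promoter H3K4me3 was at least 2-fold higher in myotubes at 11.8% of genes with 1 region, 16.1% with 2, 15.0% with 3 or 4 and 31.8% (21 of 66) with 5 or more, against 7.44% of all genes. H3K36me3 over the gene body was at least 2-fold higher at 15.2%, 22.4%, 26.9% and 31.8%, against 9.56%. Genes that had distal H3K27ac intervals but none of these regions were at 6.49% and 8.33%. Genes and their regions shared libraries, so these shares are descriptions.

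The genes with the most regions were Cdh13 (14), an atypical cadherin, E030010A14Rik and Itga9, an integrin subunit (12 each), and Actn2, Cap2, an actin regulator, and Mef2c (10 each). They were followed by Egln3 and Shroom3 (9 each) and by Cartpt, Cited2, Fto, Jph1, Sh3bp4 and Zfp36l1 (8 each). They were not alike at their promoters. H3K4me3 at Cap2 went from 3 to 34 reads, whereas Cdh13 had 95 and 103, Itga9 had 6 and 3, and Cited2 had 231 and 176.

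Some regions lay close to one another. Joining neighbours left 2185 groups, of which 1691 were single regions and 130 held 3 or more (476 regions). Other distal intervals were not joined in this way, so whether these regions group more than others was not tested. The largest were at Cap2 (9 regions over 37192 bp, 719 myotube and 13 myoblast H3K27ac reads), Actn2 (8 over 24578 bp, 610 and 7), Itga9 (8 over 24560 bp, 484 and 2) and E030010A14Rik (8 over 39854 bp, 412 and 1). The group with the most reads was another, 7 regions over 36328 bp of chromosome 2 (180095385 to 180131712) with 2119 myotube and 20 myoblast H3K27ac reads, a ratio of 41.7 (26.9 to 68.4).

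That group lay between Gata5 and Slco4a1 and enclosed the gene of the microRNA Mir1a-1 (180123753 to 180123829, plus strand), with Mir133a-2 1372 bp past its last region. These are muscle microRNAs made from 1 transcript. The locus was singled out after its values were seen. From 10 kb before to 15 kb after the start of Mir1a-1, H3K4me3 went from 19 to 601 reads (ratio 26.6, 16.9 to 44.5), H3K4me2 from 31 to 701 (20.4, 14.2 to 30.3), H3K36me3 from 40 to 260 (10.6, 7.58 to 15.2) and H3K4me1 from 55 to 475 (8.92, 6.73 to 12.01). H3K27me3 moved the other way, from 361 to 92 reads (0.357, 0.280 to 0.449), and in myoblasts it was 5.26-fold over the genome mean. The highest H3K4me3 bin, 91.5-fold, lay 1 to 2 kb upstream of Mir1a-1, and H3K36me3 reached 14.2-fold downstream of it. Another locus, where Mib1 had the nearest TSS, held Mir133a-1 (minus strand) and Mir1b (plus strand). It also had 3 regions, with 53, 117 and 66 myotube and 0, 5 and 1 myoblast H3K27ac reads. Their H3K27me3 reads in myoblasts were only 1 to 4. In all, 49 regions lay within 10 kb of an annotated microRNA gene. The share for all distal intervals was not computed, so the count does not show a preference for such genes.

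**Figure D4:**
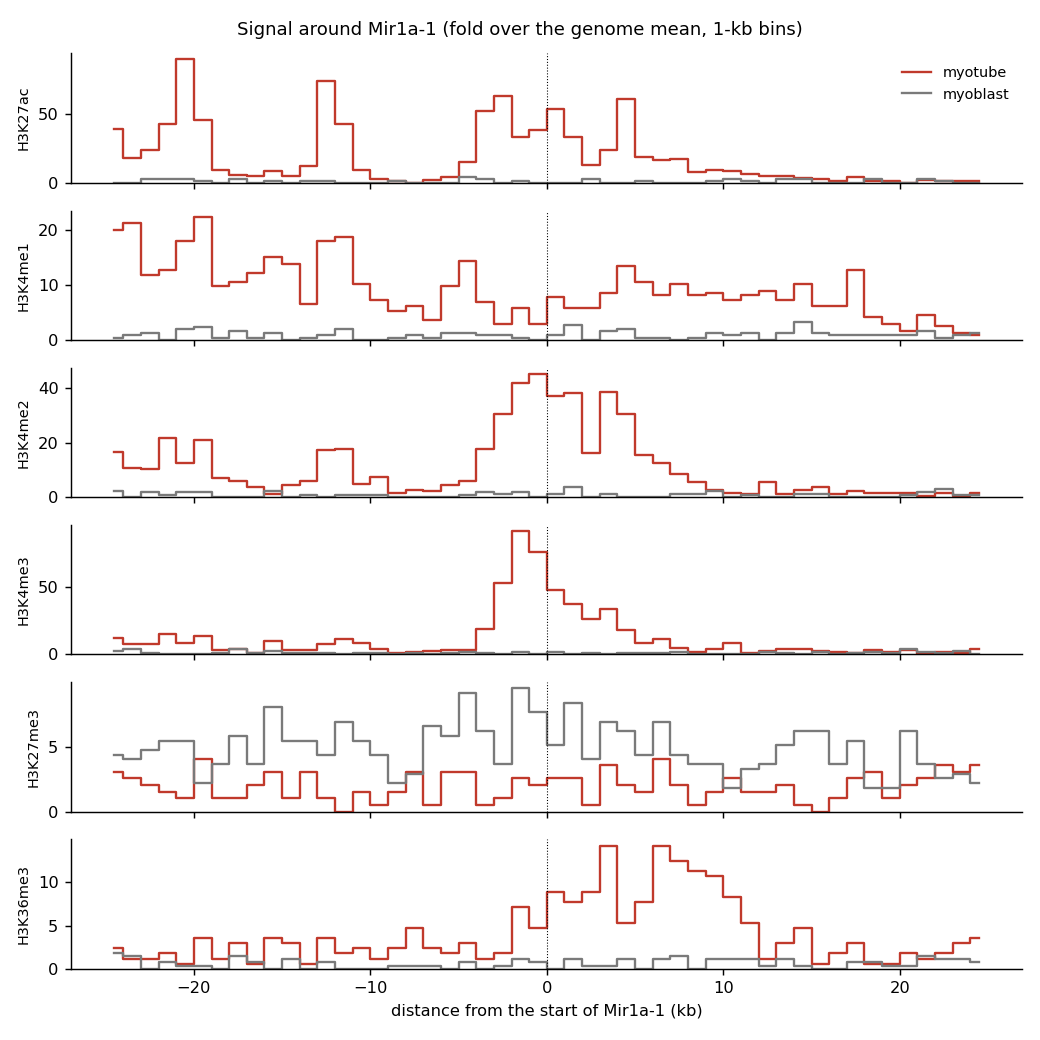
Signal of 6 marks (fold over the genome mean in 1-kb bins, vertical axes from 0) against the distance from the start of Mir1a-1 in kb, in myotubes (red) and myoblasts (grey). H3K27me3 is the only mark that is higher in myoblasts, 361 against 92 reads from -10 to 15 kb, and H3K4me3 peaks at 91.5-fold 1 to 2 kb before the start.

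A minority of the regions had raised H3K27me3 reads in myoblasts. Its reads exceeded the genome mean beyond counting error at 330 regions (11.4%), compared with 4.54% of premarked, 1.07% of kept and 3.74% of all distal intervals, and in myotubes at 85 (2.94%). The myoblast H3K27me3 list covered 25 regions (0.864%, against 0.254% of all distal intervals). At 71 regions (2.45%, against 0.709%) the counting interval of the ratio lay wholly below 1. All 71 were among the 330, which were picked for high myoblast counts and had a median of 3.28-fold there. Counting intervals were taken region by region, without correction for the number of regions. The 330 regions had a median myotube H3K27ac near that of the rest (20.03- and 18.9-fold), and 53.9% of them lay outside genes against 42.9% of the others.

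The highest myoblast H3K27me3, 9.11-fold, was found 8119 bp from Eif3d, a translation factor gene, with 25 reads in myoblasts and 7 in myotubes, while H3K27ac there went from 0 to 117 and H3K4me1 from 6 to 33. Next were a region near Fxr1, an RNA-binding protein gene of muscle (22 and 1 H3K27me3 reads, 2 and 57 H3K27ac reads), and one near Pcbd1 (21 and 4, and 2 and 161). In these 3 regions H3K4me3 was also higher in myotubes, with 12 to 14 reads against 1 or 2.

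At the other end were regions with a promoter-like mark. The highest myotube H3K4me3, 76.0-fold, lay 67097 bp from Gm10985, where H3K4me3 went from 1 to 98 reads, H3K4me2 from 1 to 65 and H3K4me1 only from 2 to 7. A region in an intron of Macf1, a cytoskeletal crosslinker, went from 2 to 93 H3K4me3 reads, and one in BC051019 from 1 to 86. In all 3, myotube H3K4me3 reads outnumbered H3K4me1 reads. Over the 454 regions in a myotube H3K4me3 interval the median H3K4me3 was 8.53-fold and the median H3K4me1 9.38-fold, the latter equal to that of the other 2441.

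By position the regions were much like the other distal intervals. They lay in introns of protein-coding genes (1426, 49.3%) or outside genes (1277, 44.1%), with 129 in exons, and the median distance to the nearest TSS was 26560 bp (25199 to 28376), against 25646 bp for all distal intervals. Over 100 kb away were 449 (15.5%), against 12.7% of premarked, 11.5% of kept and 13.4% of all distal intervals. The shares within genes were 55.9% for these regions, 57.6% for premarked and 57.9% for kept intervals. They were found on each of the 19 autosomes, as 7.42% (chromosome 7) to 10.1% (chromosome 19) of its distal intervals.

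The sequence was not used by the selection. The core CAGCTG was present in the central 1 kb of 1771 regions (61.2%, 59.4 to 62.9), which was close to premarked (61.1%), kept (58.9%) and all distal intervals (56.4%) and above the 31.2% of 2393222 genomic 1-kb tiles. It was counted on both strands at once, since it is its own reverse complement, and its sites are among those of the general E-box CANNTG, which 99.9% of the regions and 99.4% of tiles held. GC content differed as well, with a median of 45.9% in the regions and 41.7% in tiles. Among sequences of 45 to 50% GC the shares were 63.4% of the regions, 62.2% of premarked, 57.5% of kept and 43.5% of tiles. The matches were concentrated at the midpoint, where 10.2% of 100-bp bins held one within 200 bp against 4.96% at 1.5 to 2 kb.

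The MEF2 element and the AP-1 element ordered the 3 classes in opposite ways, although the MEF2 ranges of the regions and the premarked intervals overlapped. Kept intervals lacked the read and fold limits that the regions and premarked intervals had met. A MEF2 match was present in 7.18% of the regions (6.30 to 8.18), in 5.84% of premarked (4.92 to 6.91), 3.32% of kept intervals (3.02 to 3.65) and 2.18% of tiles. TGANTCA was present in 31.7% of the regions (30.04 to 33.4), in 39.3% of premarked (37.3 to 41.4), 51.5% of kept intervals (50.6 to 52.3) and 26.7% of tiles. Over all distal intervals the shares were 4.63% for MEF2 and 42.5% for TGANTCA. The orders were the same among sequences of 45 to 50% GC, with 7.05%, 5.83% and 3.27% for MEF2 and 31.2%, 39.1% and 54.8% for TGANTCA. At 40 to 45% GC, MEF2 was nearly equal in the regions (8.30%) and premarked intervals (8.11%). At the midpoint the share of 100-bp bins with a MEF2 match was 0.846% in the regions, 0.683% in premarked and 0.368% in kept intervals. At 1.5 to 2 kb it was 0.207%, 0.241% and 0.194%. For TGANTCA the values were 4.02%, 5.42% and 7.26% at the midpoint and 3.17%, 3.14% and 3.36% at 1.5 to 2 kb. The serum response element CArG showed no such order, with 5.53%, 5.00% and 5.43%, close to the 5.81% of tiles. Of the other letters searched, CACCTG was present in 57.9% of the regions, 59.2% of premarked and 51.8% of kept intervals, and the AT-rich TAAAAATA, which overlaps the MEF2 element, in 21.4%, 17.4% and 11.97% (18.0% of tiles). CATTCC was present in 50.7%, 51.8% and 51.5%, GCTCGC in 8.26%, 9.36% and 12.3%, and TCAAGGTCA in 2.45%, 4.17% and 2.64%. TGTGGT was present in 63.97%, 66.6% and 63.1%, TCAGGTT in 16.9%, 15.01% and 14.9%, and AGATAA in 43.6%, 40.5% and 38.1%, the last below the 50.4% of tiles. Both strands were searched throughout. A match to these letters is not evidence of binding, and neighbouring regions are not independent.

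**Figure D5:**
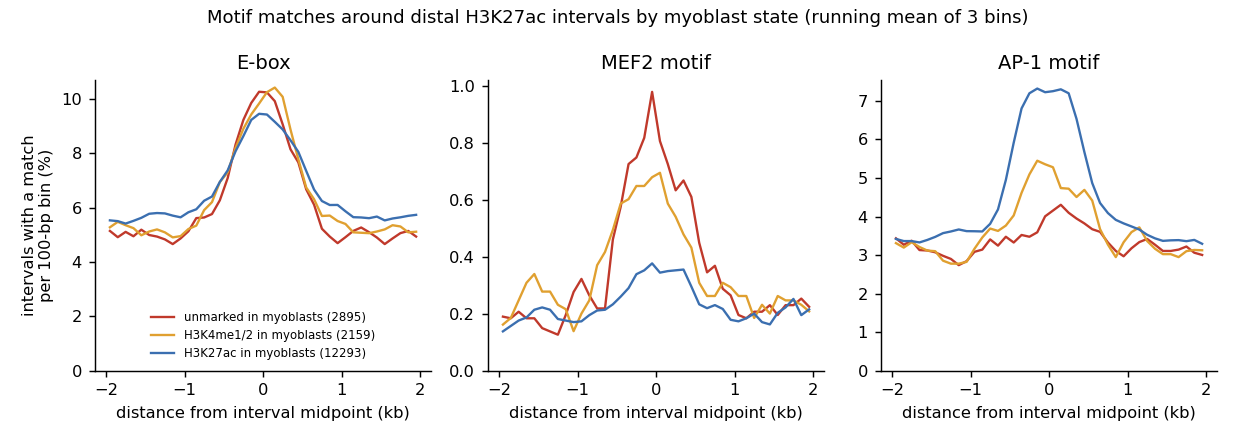
Percent of intervals with a motif match in each 100-bp bin (vertical axes from 0, running mean over 3 bins) against the distance from the interval midpoint in kb, for the CAGCTG E-box, the MEF2 element and the AP-1 element. E-box curves of the 3 classes lie together. Near the midpoint, MEF2 is highest in the regions unmarked in myoblasts (red) and lowest in kept intervals (blue), and AP-1 is the reverse.

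Several regions were near the limits of the selection. With 20 myotube H3K27ac reads, exactly at the limit, there were 136, and 114 intervals with 19 reads met all other conditions. The lowest ratios were 3.02, at Atp6v1c2, 5033411D12Rik and Edn1 (22 and 2 reads each), and just below lay 4930558K02Rik at 2.999 (60 and 7 reads) and Mettl11b and P4ha2 at 2.99. By distance, regions at Nfe2l1 (2501 bp), Acsl6 (2505 bp) and Pdpk1 (2513 bp) were inside and those at Myog (2493 bp), Nfx1 (2491 bp) and Cacng1 (2490 bp) outside.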

How the data were processed

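ChIP-seq libraries of 6 histone marks in C2C12 myoblasts and myotubes were analysed, 1 per mark and state. The authors deposited 1 line per aligned read, each a count of 1, and lists of MACS peaks with the score of each. Per the study's methods, myoblast reads were aligned to mm9 with Mosaik 1.0.1384 and unique alignments were kept. Settings of MACS, duplicate removal, the merging of runs and the steps for the myotube libraries are not given in the sources used here, and an input control was not analysed here. The myoblast lists named H3K27ac and H3K27me3 were deposited with each other's sample. Lists were used by name, since intervals of the list named H3K27ac held 36.4 times the genome mean of H3K27ac reads and 0.804 times that of H3K27me3, and those of the list named H3K27me3 0.588 and 6.76 times.

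Reads were extended to 150 bp and counted at their midpoints. Fold values divide the count in 1 kb by the mean of chromosomes 1 to 19 and X. Ratios add 1 read to each library and divide by total reads, and ratios printed with an interval for single regions or the microRNA locus add none. Genes came from GENCODE M1 on NCBIM37, and each gene had the promoter with the most H3K4me3. Regions under 12.5 kb apart were joined into groups. Poisson, conditional binomial, Wilson and order-statistic intervals (95%) were computed, and no p-value was. The selection, gene lists, motifs and alternatives were chosen with earlier results of these data known. Named regions were the 10 with the highest myotube H3K27ac fold, the 5 with the highest lower bound of its ratio, up to 3 per gene list by myotube reads, the 10 genes with the most regions (all tied genes given), the 3 with the highest myotube H3K4me3 and the 3 with the highest myoblast H3K27me3, and 3 on each side of each limit. The printed sequences, the microRNA loci and other genes named from the lists were chosen after values were seen. One region that the naming rule selects is not reported here. Steps were tested on simulated data. Counting and intervals used scipy 1.17.1 and numpy 2.4.6, tables pandas 2.3.3 and plots matplotlib 3.10.9, under Python 3.11.15.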

Additional observations from a re-analysis of the deposited data

How the results depend on the processing

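With 1 library per state no replicate could be left out. No paired analysis was possible because each group held 1 library. The medians and shares were compared with the counting interval of the main value. The number of regions stayed within 1.5 times of 2895 under 9 of 11 alternatives. It fell to 1227 with 5 added reads and to 1036 when the myotube H3K27ac library was thinned to the depth of the myoblast one, both of which ask for more reads to pass the same limits. With 5 added reads the median ratios were 2.58 for H3K4me1, 2.86 for H3K4me2, 1.54 for H3K4me3 and 1.20 for H3K27me3, and 75.1% of regions overlapped a myotube H3K4me1 interval. After thinning, H3K4me2 was at 5.41 and H3K4me3 at 2.94, the H3K4me1 overlap was 78.6% and CAGCTG was present in 64.6%. Scaling by windows without intervals gave 2.61 for H3K4me1, 3.10 for H3K4me2, 2.61 for H3K4me3 and 0.916 for H3K27me3. With 1 read per position and strand H3K4me3 was at 2.54 (2.535) and H3K27me3 at 0.931. A fold limit of 5 gave 3.51 for H3K4me1, 5.11 for H3K4me2 and a 65.9% overlap. H3K4me1 was at 3.39 with no myoblast interval within 1 kb, at 3.39 over the interval itself and at 3.53 in 3.5 kb. The H3K4me1 overlap was 74.1% when an interval within 500 bp counted, an alternative chosen after the data were seen, and CAGCTG was present in 27.5% of central 300-bp windows. The share within genes, 54.1 to 56.5%, moved under none of its 11 alternatives, and no median ratio of H3K4me1, H3K4me2 or H3K4me3 fell below 1 in any. All alternatives left out regions in the myoblast H3K4me1 and H3K4me2 lists, which raises the ratios of these marks. For H3K4me1 and H3K4me2 this stability is therefore not independent support. The median H3K27me3 ratio lay on either side of 1. Using the lists by the sample they were deposited with gave 2908 regions. The shallow myoblast H3K27ac library limits what can be called absent.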
